A study of Mus musculus with 6 samples.

Results

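Libraries wt3 and S53 are 2 of the 6 RNA-seq libraries of this study, and each stands apart from the other 2 libraries of its own genotype. All 6 were made from polyA RNA of E14 mouse embryonic stem cells (ESCs), a line of strain 129/Ola grown in serum, with 3 libraries of wild-type cells (wt1, wt2 and wt3) and 3 of Ube2d3-S138A cells (S51, S52 and S53), in which CRISPR/Cas9 editing put alanine in place of a serine of the ubiquitin-conjugating enzyme UBE2D3. The names S51, S52 and S53 match no sample title, and they were assigned to S138A as the only group besides wild-type. The study's methods keep these lines on gelatin with LIF, and no label gives a treatment or time point. No label says in what respect wt3 and S53 differed from the rest, and none tells whether the libraries of a genotype were grown apart. The spread within a genotype may thus be technical. The pair was chosen from the expression values themselves, because the first principal component over all genes set it apart, with scores of 43.91 and 64.5 against -28.38 to -25.9 in the other 4, and it held 57.15% of the variance. The difference between the sets is therefore described below with no test.

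A gene was taken to agree when the difference of wt3 from the mean of wt1 and wt2, and that of S53 from the mean of S51 and S52, were both at least 1 on the log2 scale (2-fold) with the same sign. Levels are TMM-scaled CPM, the counts of a gene over those of its library scaled to a common total. By this rule 1054 of 16023 genes tested agreed, 646 of them (4.03%) higher in wt3 and S53 and 408 (2.55%) lower. At 1.5-fold the counts were 1767 (11.0%) higher and 1165 (7.27%) lower, and these shares are the background for the gene groups below. The agreeing genes were 64.7% of the 1630 genes past 2-fold in wild-type and 44.6% of the 2361 past 2-fold in S138A, while 13 genes passed 2-fold in both with opposite signs. The 2 differences share no library, and across genes, which are not independent replicates, they had a Pearson correlation of 0.753 and a Spearman correlation of 0.743. Of the agreeing genes, 626 of the 646 had both wt3 and S53 above all 4 other libraries, and 396 of the 408 had both below. The median SE of the difference fitted with genotype in the model was 0.11. For some genes, the difference of S53 minus that of wt3, from the fit, is given as the term on the log2 scale. A gene printed without a term may differ as unequally, as in Dhrs7 (term 1.14), Nlrc4 (-1.08) and Tdpoz4 (-1.09). The pairs enter a term as well as wt3 and S53, which were chosen for standing apart. A term is thus a description, and a deviation of 1 of these libraries and a dependence on genotype cannot be told apart.

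**Figure D1:**
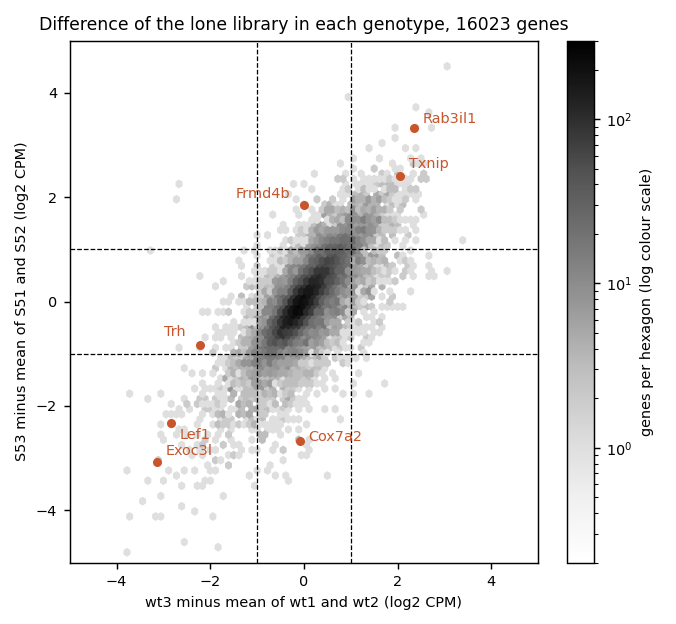
Difference of wt3 from wt1 and wt2 (horizontal, log2 CPM) and of S53 from S51 and S52 (vertical, log2 CPM) for each of the 16023 genes tested, with grey shade for the number of genes in a hexagon and dashed lines at 2-fold. The 1054 agreeing genes lie in the upper right and lower left corners, while Cox7a2, Frmd4b and Trh lie away from the diagonal.

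Markers of the cell type were looked at first, and they do not tell the genotypes apart. Pou5f1, Sox2, Nanog and Zfp42, which define ESCs, were abundant in all 6 libraries, with Pou5f1 at 1363, 1429 and 1018 CPM in wt1, wt2 and wt3 and 1416, 1427 and 954 CPM in S51, S52 and S53. Totals ran from 33227593 to 37169770 counts per library, and wt3 and S53 were the deepest and the second shallowest. Ube2d3 stood at 473, 459 and 304 CPM in wt1, wt2 and wt3 and 491, 429 and 265 CPM in S51, S52 and S53, so it was lower in both set-apart libraries, by log2 differences of -0.61 in wild-type and -0.79 in S138A. The counts per gene cannot show the edited codon. Differences between libraries were measured against counting noise over 13634 well-covered genes, where 1 is the noise alone. The ratio was 2.32 between wt1 and wt2 and 3.55 between S51 and S52. It was 29.5 to 31.9 between wt3 and its pair and 47.2 to 49.7 between S53 and its pair. Between wt3 and S53 the ratio was 24.1, above the 11.97 to 17.8 between a library of the wild-type pair and one of the S138A pair.

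ESCs in serum and LIF are kept in self-renewal by a core of transcription factors, while FGF, acting through ERK, and WNT signals move them towards or away from the formative state that precedes lineage choice. They divide fast and take up much glucose, and their supply of sugar, oxygen, sterols and amino acids is read by dedicated factors. FOXO proteins and the glucose-sensing MondoA and ChREBP act on genes such as Txnip, HIF proteins act on hypoxia genes, and SREBP proteins act on genes of sterol and fatty acid synthesis. The genes of these programmes were described as gene lists, some of which share members.

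Promoter letters of 4 genes, taken from RefSeq (GRCm38.p6) and chosen after their values were seen, show where letters known for such factors lie in the 250 bases before the gene start. Txnip (chr3:96557707-96557956, plus strand) and Arrdc4 (chr7:68749239-68749488, minus strand) encode related arrestins that limit glucose uptake. Car9 (chr4:43506776-43507025, plus strand) and Egln3 (chr12:54203875-54204124, minus strand) encode a carbonic anhydrase and a prolyl hydroxylase that are known for their response to low oxygen. Sequences run 5′ to 3′ along the strand of the gene, and capitals mark motif matches on either strand. The core of hypoxia response elements was searched as ACGTG. The E-box, which holds that core, was searched as CACGTG. A FOXO motif was searched as TGTTTAC. The carbohydrate response motif, which is only a part of a full carbohydrate response element, was searched as CACGAG.
Txnip: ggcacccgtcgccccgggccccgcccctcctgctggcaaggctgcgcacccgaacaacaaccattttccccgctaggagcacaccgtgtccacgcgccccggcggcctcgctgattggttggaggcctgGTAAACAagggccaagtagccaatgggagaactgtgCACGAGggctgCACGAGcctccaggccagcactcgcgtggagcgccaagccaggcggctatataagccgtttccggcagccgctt
Arrdc4: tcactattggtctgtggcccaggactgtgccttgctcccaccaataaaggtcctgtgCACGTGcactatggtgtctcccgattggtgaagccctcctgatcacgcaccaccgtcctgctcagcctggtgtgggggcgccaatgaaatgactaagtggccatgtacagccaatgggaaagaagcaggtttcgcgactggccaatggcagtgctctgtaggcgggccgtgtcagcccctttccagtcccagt
Car9: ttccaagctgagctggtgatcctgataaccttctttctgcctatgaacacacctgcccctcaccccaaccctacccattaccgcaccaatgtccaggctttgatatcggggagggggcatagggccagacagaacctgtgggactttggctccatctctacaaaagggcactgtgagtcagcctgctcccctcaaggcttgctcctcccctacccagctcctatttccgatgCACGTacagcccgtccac
Egln3: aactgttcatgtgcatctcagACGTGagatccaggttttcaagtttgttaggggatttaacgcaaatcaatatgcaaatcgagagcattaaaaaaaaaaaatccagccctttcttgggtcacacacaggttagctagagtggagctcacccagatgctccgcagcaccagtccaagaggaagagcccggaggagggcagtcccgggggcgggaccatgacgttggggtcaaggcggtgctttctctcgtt
The Txnip promoter held the carbohydrate response motif at 85 and 74 bases before the start and the FOXO motif at 121, that of Arrdc4 an E-box at 193, that of Car9 the hypoxia response core at 18 and that of Egln3 at 229. For comparison, the hypoxia response core was in 24.4% of the 11394 promoters of tested genes, in 21.4% of the 486 promoters of agreeing higher genes and in 17.6% of the 238 of agreeing lower genes. The corresponding shares were 9.68%, 7.61% and 7.56% for the E-box, 2.69%, 3.70% and 2.10% for the FOXO motif, and 8.31%, 6.996% and 5.88% for the carbohydrate response motif. In the list of hypoxia genes, several of which are known targets of HIF, the core was in 14 of 18 promoters.

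Txnip was the most abundant of the 20 highest agreeing genes, and genes of glucose handling and of cells at rest were among those higher in wt3 and S53. Txnip, which encodes an inhibitor of thioredoxin and of glucose uptake, stood at 305, 314 and 1278 CPM in wt1, wt2 and wt3 and 368, 372 and 1974 CPM in S51, S52 and S53. The set-apart libraries were the highest by far in each genotype, and no library of the other 4 came near them. The differences were 2.05 in wild-type and 2.42 in S138A, and the fitted difference over both genotypes was 2.24 ± 0.08 (SE, n = 6 libraries, as for all fitted values below). Of the 21 tested genes of FOXO and quiescence, 4 agreed at 2-fold and 6 at 1.5-fold, all higher, with a median fitted difference of 0.59 against -0.0012 over all genes tested. Pdk4, whose kinase keeps pyruvate out of the mitochondrial citric acid cycle, stood at 5.96 and 5.73 CPM in wt1 and wt2, 17.4 in wt3, 4.78 and 3.59 in S51 and S52, and 16.5 in S53. Ccng2, a cyclin linked to cell cycle exit, stood at 9.78 and 11.1 CPM in wt1 and wt2, 28.2 in wt3, 14.5 and 13.4 in S51 and S52, and 36.3 in S53. Insr, the insulin receptor, stood at 10.1 and 13.8 CPM in wt1 and wt2, 24.8 in wt3, 12.7 and 13.3 in S51 and S52, and 30.5 in S53. In each of these 3 genes both set-apart libraries lay above all others, with fitted differences of 1.78 ± 0.14, 1.41 ± 0.09 and 1.14 ± 0.12. Arrdc4 was under 2-fold in wild-type, at 83.1, 78.9 and 142 CPM in wt1, wt2 and wt3 and 93.4, 90.9 and 201 CPM in S51, S52 and S53, and its relative Arrdc3 had differences of -0.61 in wild-type and 0.12 in S138A.

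Among 24 genes of glycolysis, 3 agreed, all higher. Aldoc, an aldolase, stood at 9.75, 9.81 and 36.6 CPM in wt1, wt2 and wt3 and 7.13, 7.53 and 33.7 CPM in S51, S52 and S53. Ldhb, the lactate dehydrogenase subunit typical of oxidative tissues, stood at 63.8, 61.2 and 133 CPM in wt1, wt2 and wt3 and 50.4, 52.6 and 196 CPM in S51, S52 and S53. Hk1, a hexokinase, stood at 27.4, 26.8 and 56.5 CPM in wt1, wt2 and wt3 and 31.6, 33.6 and 72.7 CPM in S51, S52 and S53. The fitted differences were 2.05 ± 0.09 for Aldoc, 1.53 ± 0.15 for Ldhb and 1.11 ± 0.07 for Hk1, and that of Ldhb was larger in S53 than in wt3 (term 0.85). Eno2 and Pfkm passed neither 2-fold nor 1.5-fold in both genotypes, with differences of 0.55 and 1.31 and of 0.53 and 0.89. The list as a whole had a median of 0.28, with 16 of 24 members higher in both genotypes.

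Of 23 hypoxia response genes, 5 agreed higher at 2-fold and 0 lower, and 9 were higher and 1 lower at 1.5-fold. Vegfa, which encodes the main growth factor of blood vessels, stood at 22.5, 21.7 and 58.3 CPM in wt1, wt2 and wt3 and 29.3, 26.3 and 75.5 CPM in S51, S52 and S53. Ppp1r3c, a glycogen-targeting subunit of a phosphatase, stood at 0.726, 0.728 and 3.80 CPM in wt1, wt2 and wt3 and 1.07, 1.30 and 7.95 CPM in S51, S52 and S53. Libraries wt3 and S53 were the highest in both genes, with fitted differences of 1.42 ± 0.07 and 2.58 ± 0.17. Selenbp1 (1.45 ± 0.18), Car9 (1.59 ± 0.26) and Egln3 (1.19 ± 0.09) completed the 5, of which Car9 was near the limit of detection, with 0.424 and 0.348 CPM in wt1 and wt2, 0.917 in wt3, 0.58 and 0.435 in S51 and S52, and 1.83 in S53. Ddit4, an inhibitor of mTORC1, and P4ha1, a collagen prolyl hydroxylase, were under 2-fold in 1 or both genotypes at 1.19 in wild-type and 0.89 in S138A and at 0.88 in wild-type and 0.99 in S138A. The exception was Kdm3a, a histone demethylase, which was lower at -0.93 in wild-type and -0.87 in S138A and is named beyond the rule because it was the only member lower at 1.5-fold, while 4 members in all had the lower sign in both genotypes. The median of the list was 0.46.

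Genes of lipid synthesis lay mostly on the higher side. Of 24 genes of cholesterol synthesis and SREBP2, 4 agreed at 2-fold and 11 at 1.5-fold, all higher, and 22 had the higher sign in both genotypes. Insig1, which holds the SREBP precursors in the endoplasmic reticulum, stood at 90.5, 88.3 and 188 CPM in wt1, wt2 and wt3 and 74.5, 72.3 and 219.9 CPM in S51, S52 and S53. Dhcr7, the enzyme of the last step to cholesterol, stood at 31.4, 33.9 and 78.8 CPM in wt1, wt2 and wt3 and 29.5, 33.6 and 96.0 CPM in S51, S52 and S53. Msmo1, a sterol oxidase of the pathway, stood at 66.3, 65.4 and 133 CPM in wt1, wt2 and wt3 and 60.3, 58.6 and 152 CPM in S51, S52 and S53. In all 3 genes wt3 and S53 were the highest libraries without overlap, and the fitted differences were 1.34 ± 0.10, 1.44 ± 0.09 and 1.19 ± 0.08. Srebf2, the gene of SREBP2 itself, stayed under 2-fold at 0.56 in wild-type and 0.94 in S138A. The list had a median fitted difference of 0.68, with 0.55 in wild-type and 0.84 in S138A.

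Of 14 genes of fatty acid synthesis and SREBP1, 1 agreed at 2-fold and 8 at 1.5-fold, again all higher, with a median of 0.63. The gene past 2-fold was Thrsp, a lipogenic protein, at 0.182, 0.38 and 2.07 CPM in wt1, wt2 and wt3 and 0.319, 0.245 and 3.29 CPM in S51, S52 and S53. Scd1, a desaturase that makes oleic acid, stood at 98.3, 97.1 and 168 CPM in wt1, wt2 and wt3 and 98.2, 91.7 and 200.4 CPM in S51, S52 and S53. Scd2, its close relative, stood at 596, 601 and 974 CPM in wt1, wt2 and wt3 and 723, 701 and 1156 CPM in S51, S52 and S53. Both were highest in wt3 and S53, by 0.93 ± 0.08 and 0.70 ± 0.05, and Scd1 and Scd2 share sequence, so some reads may have been assigned to either. Acss2, which makes acetyl-CoA from acetate, differed by 0.82 ± 0.11, and Srebf1 by 0.60 ± 0.08. Acaca, the first enzyme of the pathway, differed by only 0.26 ± 0.07.

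**Figure D2:**
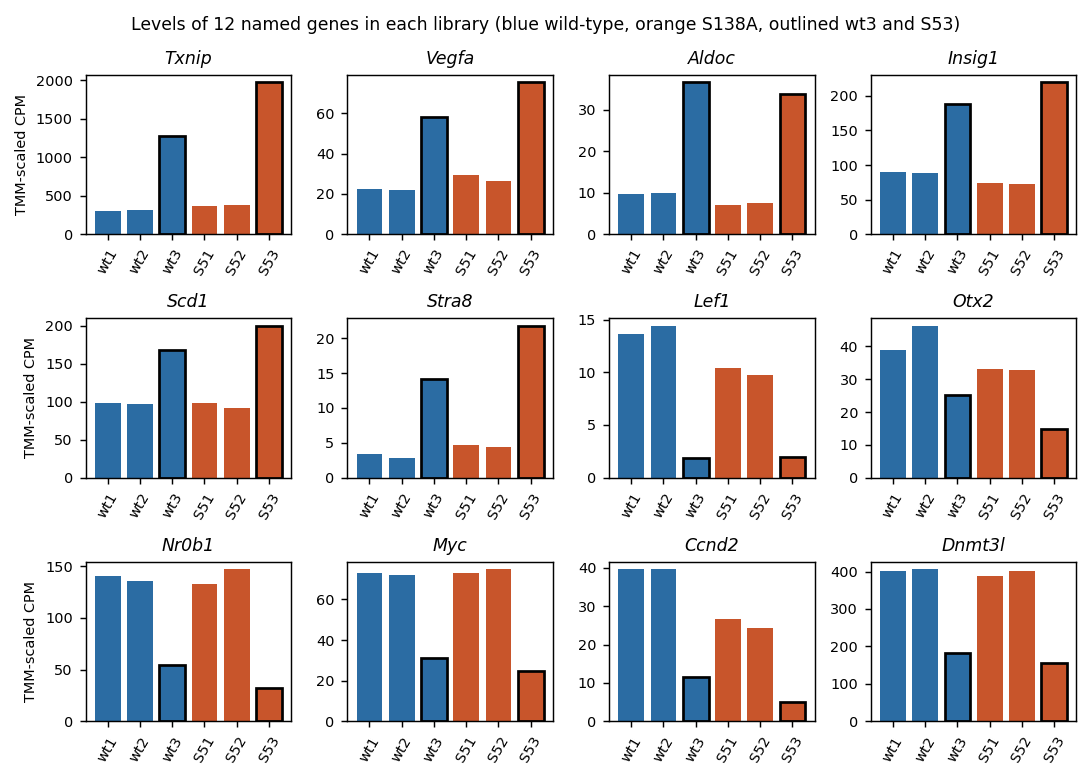
TMM-scaled CPM of 12 named genes (vertical axes start at 0) in each of the 6 libraries, with wild-type in blue, S138A in orange and wt3 and S53 outlined. In the first 6 genes, Txnip to Stra8, the outlined bars are the highest of their genotype, and in the last 6, Lef1 to Dnmt3l, they are the lowest.

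Lysosomal genes lay in the same direction with smaller differences. Of 32 genes, 1 agreed at 2-fold, 5 at 1.5-fold and 22 had the higher sign in both genotypes, with a median of 0.32. Wipi1, which acts in the formation of autophagosomes, stood at 5.69, 4.999 and 18.2 CPM in wt1, wt2 and wt3 and 6.14, 8.02 and 21.4 CPM in S51, S52 and S53. Hexa, a hexosaminidase subunit, differed by 1.00 ± 0.11, Lamp2, a membrane protein of lysosomes, by 0.98 ± 0.10, and Gabarapl1, an ATG8 family member, by 0.80 ± 0.09. Of 30 genes of amino acid supply and ATF4, 3 agreed higher and 0 lower. These were Nupr1, a stress-induced chromatin protein, at 5.84, 6.20 and 18.2 CPM in wt1, wt2 and wt3 and 3.71, 4.49 and 14.5 CPM in S51, S52 and S53, the lipoprotein receptor Vldlr, by 1.64 ± 0.15, and the glycine transporter Slc6a9, by 1.30 ± 0.17. Slc7a3, an arginine and lysine transporter, stood on the lower side at 299, 313 and 155 CPM in wt1, wt2 and wt3 and 223, 226 and 72.2 CPM in S51, S52 and S53. The list median was 0.16, and Atf4 itself had differences of 0.24 in wild-type and 0.87 in S138A (term 0.63).

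Pluripotency genes lay on both sides. Of 14 core factors, 1 agreed lower at 2-fold, 5 were lower at 1.5-fold and 1 was higher, with a median of -0.49. Dnmt3l, the cofactor of the de novo DNA methyltransferases, stood at 401, 406 and 183 CPM in wt1, wt2 and wt3 and 389, 402 and 155 CPM in S51, S52 and S53. Dppa2, a chromatin-bound factor of the early embryo, differed by -0.87 in wild-type and -1.23 in S138A, the RNA-binding protein gene Lin28a by -1.01 in wild-type and -0.81 in S138A, and the zinc finger gene Sall4 by -0.74 in wild-type and -0.87 in S138A. The defining factors were closer to even. Pou5f1 differed by -0.46 in wild-type and -0.58 in S138A and Zfp42 by -0.06 in wild-type and -0.35 in S138A, while Sox2 differed by 0.17 in wild-type and 0.25 in S138A and Nanog by 0.61 in wild-type and 0.36 in S138A. Nanog stood at 616, 614 and 937 CPM in wt1, wt2 and wt3 and 603, 602 and 775 CPM in S51, S52 and S53, and its 2 highest libraries were wt3 and S53.

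Of 18 naive factors, 1 agreed lower, and the median was -0.12. The gene was Nr0b1, a nuclear receptor bound by OCT4, at 140.2, 135 and 54.4 CPM in wt1, wt2 and wt3 and 133, 147 and 31.9 CPM in S51, S52 and S53, and its difference was larger in S53 than in wt3 (term -0.79). Prdm14, a repressor of the FGF pathway in ESCs, was higher by 0.61 in wild-type and 0.56 in S138A, and Dppa3 by 0.65 in wild-type and 0.71 in S138A, though Dppa3 was also lower in all S138A libraries, with 19.5 and 18.3 CPM in wt1 and wt2, 29.7 in wt3, 2.81 and 2.31 in S51 and S52, and 4.21 in S53. Zfp57, which guards imprinted methylation, differed by -0.58 in wild-type and -0.57 in S138A. Esrrb differed by 0.05 in wild-type and 0.02 in S138A, with a fitted difference of 0.04 ± 0.05.

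Formative and primed factors lay mostly on the lower side. Of 16 genes tested, 3 agreed lower at 2-fold and 11 at 1.5-fold, 0 were higher, and the median was -0.97. Lef1, a transcription factor of the WNT pathway, stood at 13.7, 14.4 and 1.91 CPM in wt1, wt2 and wt3 and 10.4, 9.76 and 1.97 CPM in S51, S52 and S53, so wt3 and S53 held similar levels. Foxd3, a forkhead factor needed for exit from the naive state, stood at 39.6, 44.4 and 18.9 CPM in wt1, wt2 and wt3 and 43.6, 46.4 and 10.0 CPM in S51, S52 and S53, with the larger difference in S53 (term -1.02). Otx2, a homeobox factor of the formative state, stood at 38.8, 46.3 and 25.1 CPM in wt1, wt2 and wt3 and 33.1, 32.7 and 14.7 CPM in S51, S52 and S53. The fitted differences were -2.62 ± 0.16, -1.62 ± 0.20 and -0.95 ± 0.12. Fgf5, the usual marker of this state, was scarce in all libraries, at 1.18 and 1.99 CPM in wt1 and wt2, 0.55 in wt3, 0.985 and 1.30 in S51 and S52, and 0.216 in S53, and Fgf15 differed by -1.14 ± 0.15. Dnmt3a differed by only -0.26 ± 0.06. In the list of DNA methylation genes, 3 of 13 were lower at 1.5-fold (Dnmt3l, Dnmt3b and the dioxygenase gene Tet2, at -1.25 ± 0.07, -0.79 ± 0.07 and -0.90 ± 0.07) and 0 were higher.

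Signalling targets lay on both sides within pathways. Of 22 ERK feedback and immediate early genes, 2 agreed higher and 3 lower at 2-fold, and 4 and 8 at 1.5-fold. The 4 on the higher side were the immediate early genes Fos, Egr1, Fosb and Jun, with Fos at 18.2, 20.2 and 53.6 CPM in wt1, wt2 and wt3 and 37.2, 37.9 and 145 CPM in S51, S52 and S53. Egr1, a zinc finger factor of the same class, stood at 55.9, 60.7 and 137.9 CPM in wt1, wt2 and wt3 and 60.2, 57.7 and 169.6 CPM in S51, S52 and S53. Both had wt3 and S53 as the highest libraries of their genotype. On the lower side, Fosl1, a later member of the AP-1 family, stood at 1.88 and 1.90 CPM in wt1 and wt2, 0.288 in wt3, 2.14 and 1.85 in S51 and S52, and 0.431 in S53, and Myc at 73.0, 71.9 and 31.1 CPM in wt1, wt2 and wt3 and 73.2, 74.9 and 24.7 CPM in S51, S52 and S53. The fitted differences were 1.73 ± 0.10 for Fos, 1.39 ± 0.08 for Egr1, -2.43 ± 0.25 for Fosl1 and -1.40 ± 0.09 for Myc. Phlda1 and Spry4, which are feedback genes of receptor signalling, differed by -1.24 ± 0.11 and -0.98 ± 0.06. Of the 13 LIF and STAT3 genes, 1 (Fos) agreed higher and 1 (Gbx2, -1.20 ± 0.07) lower, and Socs3, the feedback inhibitor of LIF signalling, differed by 0.86 ± 0.08, just under 2-fold in both genotypes.

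Of 14 WNT feedback genes, 2 agreed higher and 3 lower. Nkd1 and Nkd2, which encode inhibitors of Dishevelled, were higher, by 1.56 ± 0.17 and 1.26 ± 0.13, while Lef1, Lgr5, a receptor of R-spondins, and Notum, a WNT deacylase, were lower. Notum stood at 23.3, 21.9 and 10.6 CPM in wt1, wt2 and wt3 and 14.7, 16.1 and 3.72 CPM in S51, S52 and S53, and Lgr5 at no more than 0.598 CPM in any library. Axin2, the most widely used target of the pathway, differed by -0.33 in wild-type and -0.73 in S138A and did not agree. Of the 11 BMP and ID genes, 1 agreed lower, the BMP antagonist Grem1, at 1.70 and 1.46 CPM in wt1 and wt2, 0.262 in wt3, 1.45 and 1.20 in S51 and S52, and 0.027 in S53. Id3, a target of BMP signalling, differed by -0.94 in wild-type and -1.87 in S138A, and Bmp4, the ligand, by -0.99 in wild-type and -1.12 in S138A. Of the 9 NODAL genes, 1 agreed higher, the antagonist Lefty1, at 15.4, 15.5 and 42.4 CPM in wt1, wt2 and wt3 and 15.2, 16.1 and 90.8 CPM in S51, S52 and S53. Lefty2 was higher mainly in S53, at 27.5, 25.0 and 30.3 CPM in wt1, wt2 and wt3 and 24.3, 25.1 and 63.5 CPM in S51, S52 and S53, and the difference was larger in S53 for Lefty1 (term 1.08) and for Lefty2 (term 1.16). Among 19 YAP and SRF targets, 0 agreed at 2-fold, but 16 had the lower sign in both genotypes, with a median of -0.58, and the actin gene Actb stood at 3161, 3144 and 1894 CPM in wt1, wt2 and wt3 and 3093, 3128 and 1423 CPM in S51, S52 and S53.

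Genes of growth and of the making of ribosomes lay on the lower side by small amounts. All 30 of 30 genes of ribosome assembly and RNA polymerase I had the lower sign in both genotypes, with a median of -0.53, although 0 passed 2-fold and 3 passed 1.5-fold. Over all genes, 6354 of 16023 had the lower sign in both genotypes and 6377 the higher. Nop58, a protein of box C/D particles, stood at 313, 292 and 181 CPM in wt1, wt2 and wt3 and 233, 251 and 147 CPM in S51, S52 and S53. Heatr1, a processing factor of ribosomal RNA, stood at 440.3, 439 and 282 CPM in wt1, wt2 and wt3 and 398, 403 and 209 CPM in S51, S52 and S53, and Utp20 and Nip7 differed by -0.77 ± 0.08 and -0.71 ± 0.08. Myc and Ccnd2, which drive growth and entry into the cell cycle, were the 2 of 21 regulators that agreed lower. Ccnd2, a D cyclin, stood at 39.6, 39.6 and 11.6 CPM in wt1, wt2 and wt3 and 26.8, 24.2 and 5.07 CPM in S51, S52 and S53. Its relative Ccnd1 did not pass 2-fold in wild-type, with -0.64 in wild-type and -1.14 in S138A, and Cdkn1a, the inhibitor p21, was higher by 1.04 in wild-type and 0.89 in S138A. The genes of the cycle itself were close to even: 1 of 43 replication genes and 0 of 35 mitosis genes were higher at 1.5-fold, 0 and 0 were lower, and the medians were -0.12 and -0.02.

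Other groups of protein and RNA handling lay slightly on the lower side, as did abundant genes in general. In the highest of 4 bins of all tested genes by mean level (52.05 CPM or more), the median fitted difference was -0.144. The medians were -0.34 for 23 heat shock proteins and chaperonins, -0.34 for 31 splicing factors, -0.30 for 23 genes of the unfolded protein response, -0.31 for 31 proteasome subunits, and -0.07 for 48 ribosomal proteins. None of these 5 lists had a member past 2-fold in both genotypes. Hsph1, a large heat shock protein, came nearest, at 512, 502 and 254 CPM in wt1, wt2 and wt3 and 453, 439 and 208 CPM in S51, S52 and S53, and Hspa5, the main chaperone of the endoplasmic reticulum, differed by -0.76 ± 0.09. The lists of nuclear respiratory subunits (37 genes, median -0.11), tRNA synthetases (19, -0.13), metallothioneins with a zinc transporter (5, -0.33) and replication-dependent histones (17, 0.05) had no member past 1.5-fold in both genotypes. The metallothionein median was -0.10 in wild-type and -0.62 in S138A, and that of histones was 0.39 and -0.26, with opposite signs. Of 27 Polycomb subunits 1 was higher and 3 were lower at 1.5-fold, of 26 developmental regulators bound by Polycomb 3 and 4, of 16 NRF2 genes 0 and 1, of 13 mitochondrial mRNAs 0 and 2, and of 10 nuclear and snoRNA host RNAs 1 and 0. Of 24 p53 targets 4 were higher and 0 lower at 1.5-fold, including Cdkn1a and the apoptosis gene Bbc3 (0.82 ± 0.09), and of 21 interferon-stimulated genes 3 agreed higher and 1 lower. Stat2, a mediator of interferon signalling, stood at 24.5, 23.9 and 59.0 CPM in wt1, wt2 and wt3 and 21.5, 17.8 and 55.5 CPM in S51, S52 and S53. Ddx58, the RNA sensor RIG-I, was the lower 1, at 84.9, 82.7 and 30.3 CPM in wt1, wt2 and wt3 and 66.5, 69.6 and 16.2 CPM in S51, S52 and S53, and the other interferon genes that agreed, Oasl1 and Oasl2, stood under 2 CPM.

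**Figure D3:**
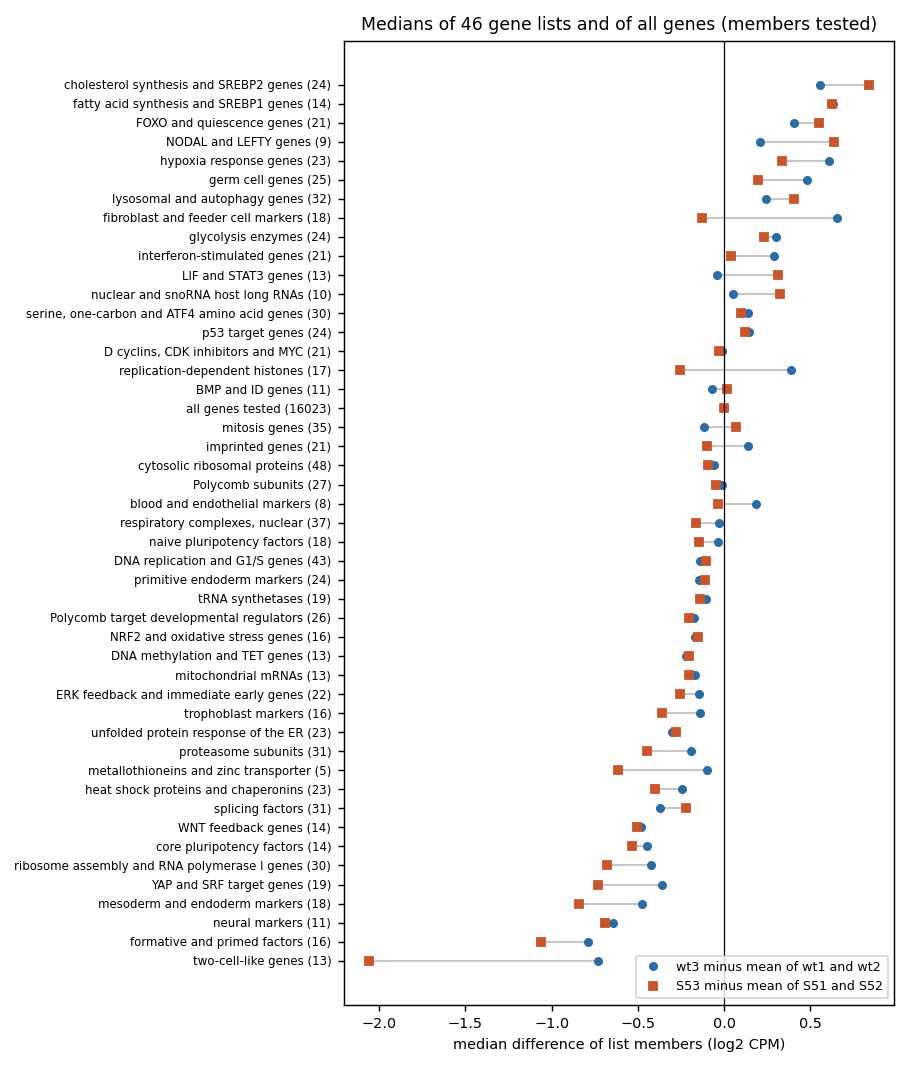
Median difference (log2 CPM) of the members of each of the 46 gene lists and of all genes tested, in wild-type (blue circles) and in S138A (orange squares), with the number of members tested in brackets and lists in order of the median fitted difference. Sterol and fatty acid synthesis lie at the top, and formative factors and genes of cells like those of the early cleavage embryo lie at the bottom, with the last of these spread between -0.73 in wild-type and -2.06 in S138A.

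Genes that mark cells like those of the early cleavage embryo had the most negative fitted list median, -1.39, though in wild-type alone the formative list was lower (-0.79 against -0.73) and without S53 too (-0.79 against -0.74), with 5 of 13 agreeing lower, and in several of them S51 and S52 were themselves high. Zscan4c, which acts at telomeres in such cells and has near-identical copies that can share its reads, stood at 20.3, 20.2 and 9.59 CPM in wt1, wt2 and wt3 and 52.8, 49.9 and 13.8 CPM in S51, S52 and S53. The other S138A libraries thus lay above wt1 and wt2, and S53 lay near wt3. The difference was larger in S53 than in wt3 (term -0.82). Over all genes, S51 and S52 lay at least 2-fold above all of the other 4 libraries in 120 genes and below them in 13, against 238 above and 213 below for wt3 and S53. The same counts were 79 and 63 for wt3 alone against all others, and 194 and 123 for S53 alone.

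The highest agreeing genes by the smaller of the 2 differences, among named genes with a mean of at least 5 CPM, began with Aurkc, Rab3il1 and Cntd1. Aurkc, an Aurora kinase of meiosis, stood at 2.24, 2.50 and 14.5 CPM in wt1, wt2 and wt3 and 2.58, 3.70 and 17.5 CPM in S51, S52 and S53. Stra8, the gatekeeper of meiotic entry, stood at 3.39, 2.75 and 14.1 CPM in wt1, wt2 and wt3 and 4.72, 4.43 and 21.8 CPM in S51, S52 and S53, and Cntd1, a cyclin-like protein of meiotic crossovers, at 2.97 and 3.83 CPM in wt1 and wt2, 17.0 in wt3, 2.61 and 3.15 in S51 and S52, and 18.4 in S53. In all 3, wt3 and S53 lay far above the other 4 libraries, by 2.54 ± 0.14, 2.22 ± 0.11 and 2.50 ± 0.14. Got1l1, a relative of an aspartate aminotransferase, differed by 2.16 ± 0.10. The list of 25 germ cell genes held 1 that agreed at 2-fold (Stra8) and 6 at 1.5-fold, all higher, with a median of 0.33. The median was 0.48 in wild-type and 0.19 in S138A, and 13 members had the higher and 3 the lower sign in both. The list summed to 723 and 752 CPM in wt1 and wt2 and 915 in wt3. In S51 and S52 it summed to 738 and 732 CPM, and in S53 to 691, below its pair. Rhox9 differed by 0.83 in wild-type and 0.89 in S138A, and Prdm1 by 0.80 in wild-type and 1.73 in S138A.

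The others of these 20 genes follow. Rab3il1, an exchange factor for RAB proteins, stood at 4.81, 4.11 and 22.9 CPM in wt1, wt2 and wt3 and 2.46, 2.31 and 24.5 CPM in S51, S52 and S53, with the larger difference in S53 (term 1.00). Ppp1r3b, a glycogen-targeting phosphatase subunit like Ppp1r3c, stood at 1.82, 2.09 and 9.38 CPM in wt1, wt2 and wt3 and 2.72, 2.83 and 11.9 CPM in S51, S52 and S53. Pik3ip1, an inhibitor of PI3-kinase, stood at 3.36, 4.27 and 12.9 CPM in wt1, wt2 and wt3 and 3.59, 3.02 and 16.4 CPM in S51, S52 and S53. All 3 had wt3 and S53 above every other library. Bmp7, a ligand of the BMP family, differed by 1.88 ± 0.14, Dkk3, a secreted protein of the Dickkopf family, by 1.71 ± 0.13, Prex1, an exchange factor for RAC, by 2.27 ± 0.17, Plxnd1, a semaphorin receptor, by 1.92 ± 0.11, and Acot1, an acyl-CoA thioesterase, by 1.86 ± 0.12. Fat2, a large cadherin, and Dhrs7, a dehydrogenase, differed by 1.97 ± 0.11 and 2.64 ± 0.23. The remaining genes, Btnl7-ps (a pseudogene of a butyrophilin-like gene), Tmc7, Mxra7 and Sh2d5, differed by 2.27 ± 0.17, 1.91 ± 0.16, 1.84 ± 0.15 and 1.90 ± 0.13.

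**Figure D4:**
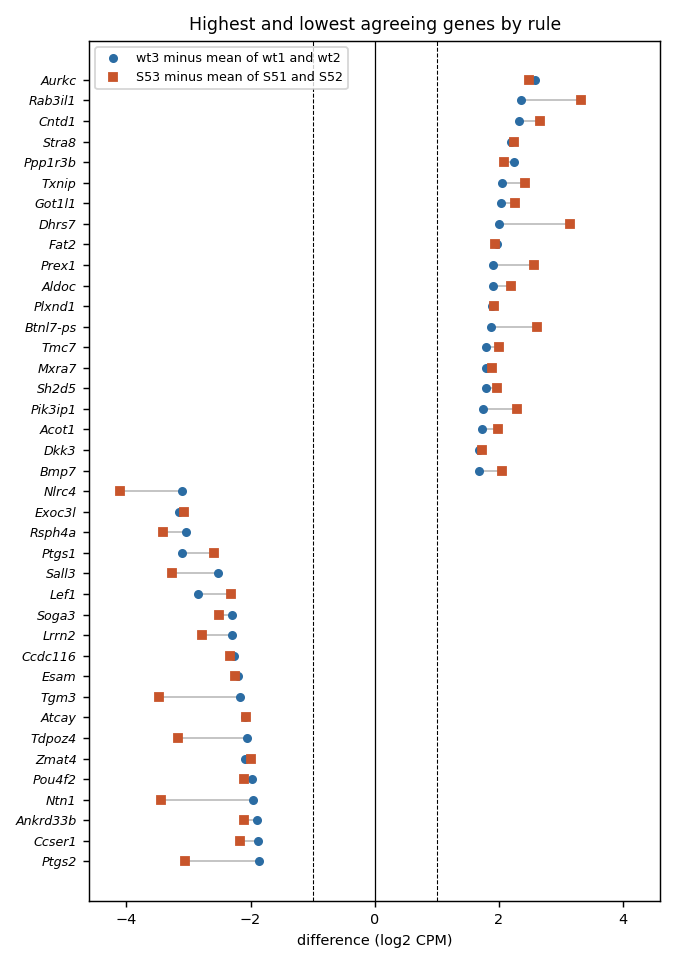
The highest and lowest agreeing genes by the smaller of the 2 differences, apart from a gene that is not reported here, with the difference (log2 CPM) in wild-type as blue circles, that in S138A as orange squares and dashed lines at 2-fold. Pairs of points lie close together for genes such as Aurkc, Stra8, Exoc3l and Atcay, and far apart for Tgm3 and Ntn1, for which the S138A difference was the larger.

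The lowest agreeing genes were chosen in the same way. Exoc3l, a relative of an exocyst subunit, stood at 45.8, 44.2 and 5.03 CPM in wt1, wt2 and wt3 and 50.4, 54.6 and 6.17 CPM in S51, S52 and S53. Nlrc4, a component of inflammasomes, stood at 13.9, 14.0 and 1.57 CPM in wt1, wt2 and wt3 and 13.3, 10.2 and 0.62 CPM in S51, S52 and S53. In both, wt3 and S53 lay far below the other 4 libraries, and the fitted differences were -3.12 ± 0.09 and -3.57 ± 0.24. Both prostaglandin synthases were in the group. Ptgs1 stood at 5.21 and 5.09 CPM in wt1 and wt2, 0.55 in wt3, 9.36 and 8.97 in S51 and S52, and 1.48 in S53, and Ptgs2, the inducible form, at 12.6 and 13.3 CPM in wt1 and wt2, 3.49 in wt3, 22.7 and 23.3 in S51 and S52, and 2.72 in S53. Ntn1, the axon guidance cue netrin 1, stood at 70.5, 73.1 and 18.5 CPM in wt1, wt2 and wt3 and 70.4, 74.1 and 6.58 CPM in S51, S52 and S53, with a larger difference in S53 (term -1.50), as in Tgm3, a transglutaminase (term -1.32), and Ptgs2 (term -1.19). Sall3, a zinc finger factor related to Sall4, stood at 13.3, 14.1 and 2.33 CPM in wt1, wt2 and wt3 and 27.1, 26.8 and 2.75 CPM in S51, S52 and S53, and Pou4f2, a POU factor of retinal neurons, differed by -2.07 ± 0.14. Esam, an adhesion molecule of endothelium, differed by -2.27 ± 0.15, Rsph4a, a protein of motile cilia, by -3.30 ± 0.16, and Tdpoz4, a gene of the early cleavage embryo, by -2.78 ± 0.24. Other genes of the group, Soga3, Lrrn2, Ccdc116, Atcay, Zmat4, Ankrd33b and Ccser1, had fitted differences of -2.42 ± 0.09, -2.59 ± 0.16, -2.33 ± 0.14, -2.10 ± 0.11, -2.06 ± 0.10, -2.01 ± 0.10 and -2.08 ± 0.15.

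At the threshold, the named gene just inside on the higher side was Ephx1 (1.09 in wild-type and 1.00 in S138A) and the 1 just outside was Cep131 (1.19 and 1.00, the second of which was under the limit before rounding). On the lower side Pcyt1b (-1.01 and -1.04) was just inside.

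Markers of other cell types were followed as whole lists, and their part in the differences was not tested. Fibroblast and feeder markers summed to 999 to 1069 CPM in wt1 and wt2 and 1165 in wt3. In S138A they summed to 1209.9 to 1249 CPM in S51 and S52 and 1312 in S53. Of these markers, 2 of 18 agreed higher (Pdgfrb, 1.54 ± 0.15, and Col6a2, 1.54 ± 0.21) and 0 lower. At 1.5-fold 6 were higher and 1 lower. The list median was 0.65 in wild-type but -0.13 in S138A, with opposite signs. Neural markers summed to 406.8 to 406.9 CPM in wt1 and wt2 and 267 in wt3, and to 409 to 416 CPM in S51 and S52 and 257 in S53, with 2 of 11 agreeing lower. Nes, an intermediate filament of neural progenitors, stood at 114, 115 and 54.5 CPM in wt1, wt2 and wt3 and 109.8, 118 and 49.7 CPM in S51, S52 and S53. Mesoderm and endoderm markers summed to 40.2 to 40.3 CPM in wt1 and wt2, 31.0 in wt3, 58.2 to 62.2 in S51 and S52, and 35.6 in S53, and 4 of 18 agreed lower and 1 higher. Kdr, a receptor of VEGF on mesoderm, stood at 9.20, 9.59 and 3.62 CPM in wt1, wt2 and wt3 and 9.50, 9.87 and 1.40 CPM in S51, S52 and S53, and Evx1 at 1.06 and 0.601 CPM in wt1 and wt2, 0.0262 in wt3, 1.54 and 1.25 in S51 and S52, and 0.0809 in S53. Primitive endoderm markers held 2 of 24 that agreed lower and 0 higher, with sums of 1515 to 1583 CPM in wt1 and wt2, 1431 in wt3, 1440.3 to 1450.5 in S51 and S52, and 1465 in S53. Trophoblast markers summed to 671 to 677 CPM in wt1 and wt2, 657 in wt3, 911 to 964 in S51 and S52 and 578 in S53, with 1 of 16 agreeing higher and 1 lower, and Tpbpa and Prl2c2, which define placental lineages, were at 0 in all libraries. Blood and endothelial markers had 0 of 8 agreeing higher and 0 lower, with sums of 104 to 105 CPM in wt1 and wt2, 169 in wt3, 96.9 to 102 in S51 and S52, and 118 in S53, and the globin gene Hbb-bt was at 0 in all libraries. In bulk RNA, fewer cells of a type and less RNA per cell cannot be told apart.

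The agreeing genes were less abundant than most, while the higher and the lower genes lay on opposite sides of the background in base composition. The median of the mean level was 2.33 CPM for the higher and 1.89 CPM for the lower genes against 15.5 CPM for all genes tested. When genes were split by mean level into 4 bins of equal size, 8.54% of the lowest bin agreed higher and 5.77% lower, and 0.32% and 0.65% of the highest bin. From the lowest to the highest bin, the median fitted difference was 0.153, 0.161, -0.0065 and -0.144. The medians of the gene lists were not set against genes of like level. GC content and length were taken from the longest protein-coding transcript of a gene, or from its longest transcript where none was protein-coding. The median GC content was 53.3% for the higher genes, 49.2% for the lower and 50.4% for all. From the lowest to the highest of 4 bins of GC content, the share that agreed higher went from 1.99% to 6.29% and the share that agreed lower from 3.23% to 1.84%. Transcript length was alike, with medians of 2870 bases for the higher, 2834 for the lower and 2962 for all genes. Protein-coding genes were 94.8% of the annotated higher genes, 80.7% of the lower and 91.3% of all. The part of base composition in the differences was not tested. Mitochondrial transcripts took 5.88% to 6.44% of unscaled counts in wt1 and wt2 and 6.35% in wt3. They took 5.41% to 5.70% in S51 and S52 and 5.69% in S53, so both shares lay within the range of their genotype. On the TMM scale the listed mitochondrial mRNAs summed to 66770, 60177 and 60553 CPM in wt1, wt2 and wt3. They summed to 55592, 52602 and 51234 CPM in S51, S52 and S53, so S53 lay below its pair.

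Each set-apart library also had 1 chromosome on which most genes were higher, and the chromosome differed between the 2. Among genes with a mean of at least 5 CPM, the median of wt3 minus wt1 and wt2 was 0.133 on chromosome 11 (893 genes, 64.3% of them above 0) and lay between -0.101 and -0.0028 on every other autosome and on X. The median of S53 minus S51 and S52 was 0.170 on chromosome 6 (482 genes, 66.2% above 0) and lay between -0.105 and 0.0044 on the others. On chromosome 11 the median of S53 was -0.056, and on chromosome 6 that of wt3 was -0.024. Between wt2 and wt1 the medians of all chromosomes lay between -0.021 and 0.019, and between S52 and S51 from -0.038 to 0.035. Along chromosome 11, in 4 bins of its genes by position, the median in wt3 was 0.127, 0.109, 0.160 and 0.142. Along chromosome 6, the median in S53 was 0.182, 0.241, 0.223 and, in the last bin, 0.019. These shifts were noticed after the data were seen and have no test. In S51 and S52 against wt1 and wt2 the chromosome 11 median was -0.132, the lowest of all chromosomes. Without the genes of these chromosomes, 541 genes agreed higher and 360 lower, and the correlation of the 2 differences was 0.757.

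**Figure D5:**
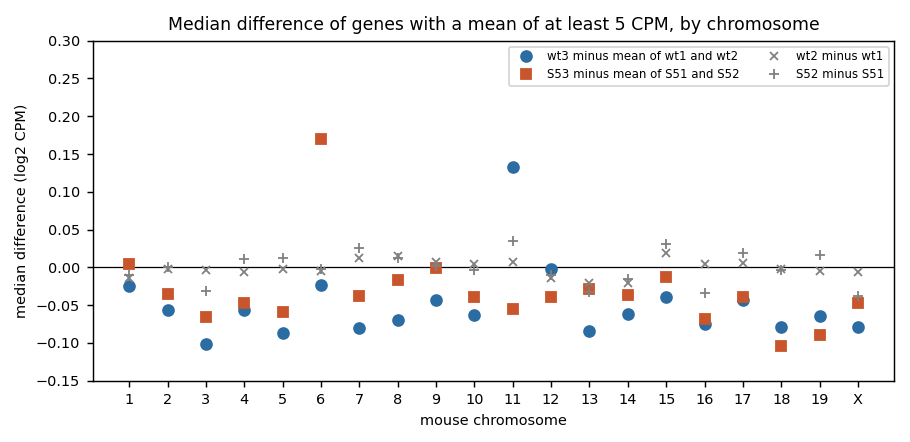
Median difference (log2 CPM) of genes with a mean of at least 5 CPM on each chromosome, for wt3 against its pair (blue circles), S53 against its pair (orange squares), and within the pairs (grey crosses). Chromosome 11 in wt3, at 0.133, and chromosome 6 in S53, at 0.170, stand above all other points.

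The terms were also put through edgeR's quasi-likelihood test of the genotype by set term (Benjamini-Hochberg adjusted p under 0.05). It called 189 of 16023 genes (1.18%) with a higher difference in S138A and 288 (1.80%) with a lower, of which 32 were agreeing genes. Its 2 residual degrees of freedom come from the pairs wt1 and wt2, and S51 and S52. It assumes that wt3 and S53 vary as those pairs do, whereas both were picked for standing apart, so a low p sets these 2 libraries against the spread of close pairs and shows no difference between genotypes. The calls are given as counts, and the 10 genes of smallest p are described below by their levels and terms. The counts of higher and lower calls were 22 and 58 without wt1, 142 and 260 without wt2, 756 and 847 without S51, and 486 and 619 without S52. By chromosome, 38 of 715 genes of chromosome 6 (5.31%) were called higher and 64 of 1337 genes of chromosome 11 (4.79%) were called lower, and without both chromosomes 119 and 191 calls were made.

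The genes with the smallest p in this test included several in which S53 stood apart from all others. Cox7a2, a subunit of cytochrome c oxidase, stood at 65.3, 62.9 and 60 CPM in wt1, wt2 and wt3 and 55.6, 56.7 and 8.82 CPM in S51, S52 and S53, so S53 alone was low (term -2.58). Frmd4b, a scaffold gene, stood at 11.02, 11.2 and 11.1 CPM in wt1, wt2 and wt3 and 12.1, 11.7 and 43.2 CPM in S51, S52 and S53, with S53 alone high (term 1.86). Pramel7, a gene of the early embryo, stood at 3.69 and 4.49 CPM in wt1 and wt2, 5.79 in wt3, 8.32 and 9.40 in S51 and S52, and 0.863 in S53 (term -3.86). In these 3, wt3 lay near or above wt1 and wt2. Trh, which encodes thyrotropin-releasing hormone, stood at 159, 171 and 35.6 CPM in wt1, wt2 and wt3 and 163, 156 and 89.6 CPM in S51, S52 and S53, with wt3 the lowest (term 1.38). Hmga2, a chromatin protein of early embryos, stood at 36.8, 35.0 and 36.9 CPM in wt1, wt2 and wt3 and 46.8, 46.6 and 16.9 CPM in S51, S52 and S53 (term -1.51). In others S51 and S52 lay away from wt1 and wt2. Platr15, a long noncoding RNA, stood at 18.0, 15.9 and 20.2 CPM in wt1, wt2 and wt3 and 4.55, 5.14 and 26.0 CPM in S51, S52 and S53 (term 2.17), and Dio3, an imprinted deiodinase, at 16.9, 18.6 and 10.2 CPM in wt1, wt2 and wt3 and 47.0, 46.7 and 4.88 CPM in S51, S52 and S53 (term -2.47). Col1a1, a collagen, stood at 21.1, 20.5 and 36.1 CPM in wt1, wt2 and wt3 and 68.8, 75.0 and 37.9 CPM in S51, S52 and S53, with wt3 above its pair and S53 below its pair (term -1.72). Cd59b, a complement inhibitor, stood at 12.3, 12.8 and 9.17 CPM in wt1, wt2 and wt3 and 7.65, 7.96 and 21.3 CPM in S51, S52 and S53 (term 1.90), and Ntn1 was given above. Of the imprinted genes, 1 of 21 agreed (Usp29, 2.03 ± 0.19), and H19 stood at 15.6, 14.0 and 68.4 CPM in wt1, wt2 and wt3 and 1.59, 1.52 and 2.59 CPM in S51, S52 and S53 (term -1.48).

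Filters moved the counts at the fold threshold. With a filter of 1 CPM in 3 libraries, 443 genes agreed higher and 260 lower, and with 2-fold required against both other libraries of the genotype separately, 460 and 329. Of the 1054 agreeing genes, 702 had the larger difference in S138A, and the median size of the difference over all genes was 0.32 in wild-type and 0.39 in S138A.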

How the data were processed

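PolyA RNA of 6 E14 ESC libraries, 3 wild-type and 3 Ube2d3-S138A, was sequenced by the authors after TruSeq Stranded preparation with added ERCC spike-ins. The deposited values are raw counts per gene, which the authors made with CASAVA 1.8.4, TopHat2 2.0.11 and featureCounts (version not given in the sources used here) on the mouse build mm9. No normalization had been applied to them. Columns wt1, wt2 and wt3 were matched to the wild-type sample titles. The names S51, S52 and S53 give no sample, and these columns were assigned to S138A as the only other group. The members and gene lists were chosen with earlier results of these data known.

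From the counts, genes passing filterByExpr of edgeR 4.0.16 (minimum count 10, minimum total 15; 16023 of 37620 genes) were scaled by TMM. Within-genotype differences used log2 CPM with a prior count of 2. Fitted differences came from edgeR's quasi-likelihood fit with genotype and set as terms, in R 4.3.3. Only the genotype by set term was tested, with Benjamini-Hochberg adjustment. It compares the difference of S53 from S51 and S52 with that of wt3 from wt1 and wt2. With a single set-apart library in each genotype, it cannot show a dependence on genotype. Alternatives used limma 3.58.1, DESeq2 1.42.0, RLE and upper-quartile factors, other filters, thresholds and prior counts, each library left out, and a replicate block. The fits were tested on simulated data. Levels are not divided by gene length, so they are compared between libraries and not between genes.

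The text names the 20 highest and 20 lowest agreeing genes by the smaller difference with a symbol that is not a Gm or Rik name and a mean of at least 5 CPM, up to 4 members of each list with the largest smaller difference and 1 or 2 that did not agree, the 10 genes of smallest p in the test, the genes next to the threshold, and Ube2d3. Genes named beyond this rule were chosen after their values were seen, and a few that it selects are not reported here. Depth was 33227593 to 37169770 counts per library. The p-values cover only the spread within the pairs wt1 and wt2, and S51 and S52, and no spread of wt3 or S53. Library numbers were taken from the column names, and no source says that they mark a shared day or culture. The numbers were treated as a pairing in the replicate block. Deviations from the genotype mean correlated over genes by 0.530, 0.493 and 0.753 between wt1 and S51, wt2 and S52, and wt3 and S53. Crossing numbers 1 and 2 gave 0.526 and 0.515. The difference wt1 minus wt2 correlated by -0.014 with S51 minus S52. The data thus set only number 3 apart and show no pairing of numbers 1 and 2.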

Additional observations from a re-analysis of the deposited data

Results flagged for a closer look

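The 10 genes with the smallest p in edgeR's test of the genotype by set term were singled out because the difference of S53 from its pair and that of wt3 from its pair were unequal. The first minus the second, on the log2 scale, was -2.58 for Cox7a2, -2.47 for Dio3, -1.72 for Col1a1, -3.86 for Pramel7, -1.51 for Hmga2 and -1.50 for Ntn1. It was 1.86 for Frmd4b, 1.38 for Trh, 2.17 for Platr15 and 1.90 for Cd59b. These values depend on the pairs as well as on wt3 and S53, which were chosen for standing apart. A dependence on genotype and a deviation of either wt3 or S53 cannot be told apart.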

How the results depend on the processing

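Fitted differences were rerun for Ube2d3, the highest and lowest 20 genes and those next to the threshold. They were also rerun for list members that agreed at 2-fold, and terms for the 10 genes of smallest p. Values of other genes named in the text were not rerun. None of the rerun fitted differences and terms changed sign under any alternative, but medians of 8 gene lists did. Without wt3 the median of histones went from 0.05 to -0.29, of fibroblast markers from 0.31 to -0.14, of D cyclins and MYC from 0.09 to -0.03 and of mitosis genes from -0.02 to 0.07. Without S53 that of LIF genes went from 0.21 to -0.04, of blood markers from -0.11 to 0.19 (0.12 without S52), of imprinted genes from -0.06 to 0.14 (0.27 without chromosomes 6 and 11) and of D cyclins and MYC to -0.01. The BMP median, -0.0011, lay at either side of 0 by setting. In all, 47 of 552 medians under alternatives moved by at least the median SE of the fitted differences of the list's members. The 646 agreeing higher and 408 agreeing lower genes became 1767 and 1165 at 1.5-fold, and the lower count became 260 with a filter of 1 CPM in 3 libraries. Leaving out 1 library gave 736 to 768 agreeing higher and 423 to 465 agreeing lower genes. The correlation of 0.753 across genes was 0.600 over every gene with a count, and 0.721 to 0.743 with 1 library left out. Fitted differences of at least 1 in size, 1120 higher and 768 lower, numbered 3320 and 3723 over every gene with a count, where the lower were the more numerous, and 735 and 449 with the 1 CPM filter. They numbered 1145 to 1419 and 781 to 1237 with 1 library left out, where the lower count reached 1237 without wt3. Calls of the genotype by set term, 189 higher and 288 lower, numbered 13 and 32 at an adjusted p of 0.01, 22 to 756 and 58 to 847 with 1 library left out, and 119 and 191 without the genes of chromosomes 6 and 11, an alternative chosen after seeing the data that tests fewer genes. DESeq2 made 132 and 216 calls and limma-voom 197 and 268. The cause of the other changes was not tested. With the replicate block, 1136 and 763 genes had a fitted difference of at least 1 in size. The block moved no count by over 1.5 times. Depth limits genes near 1 CPM most, and agreeing genes had median levels of 2.33 and 1.89 CPM.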
